A study of Mus musculus with 23 samples.

Results

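The forkhead family comprises transcription factors that share a winged-helix DNA-binding domain and are grouped by letter, from FoxA to FoxS. Members were the genes of a mouse RNA-seq expression table whose symbol is Fox, 1 letter from a to s and a number, without Foxa2 and Foxh1, and 42 of the 29032 symbols in the table met this rule. No forkhead symbol occurred more than 1 time, so each member is 1 row. Forkhead factors bind related DNA sequences, and several of them can bind closed chromatin and open it. FoxO proteins leave the nucleus when Akt phosphorylates them in response to insulin and growth factors, FoxM1 drives genes of mitosis, and FoxP and FoxK proteins act largely as repressors. In the early mouse embryo Foxd3 is required to maintain the epiblast, while FoxC, FoxF and FoxL members belong to mesoderm and mesenchyme.

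The series asks how Nodal signalling and the chromatin reader Trim33 act on genes of early differentiation, and its RNA-seq part holds 10 libraries in 5 groups of 2. Embryoid bodies (EBs), the aggregates that embryonic stem cells (ESCs) form in suspension without leukaemia inhibitory factor, were collected at day 2.5 and were wild type (WT) or Trim33-null, both from ESCs with a C57Bl/6J background. Each genotype received activin A at 50 ng/ml for 2 h, which signals through the receptors and SMAD proteins of Nodal, or SB431542, which inhibits the kinase of those receptors. The fifth group was ESCs of the line E14, wild type by their characteristics, treated with activin A at 50 ng/ml, and all groups grew in 15% serum. No group was left without either agent, so the low-signal state is inhibition by SB431542 and not an absence of treatment. SB431542 is given at 10 micromolar in some label fields and at 10 millimolar in another, and for 1 h in the protocol against 2 h in the titles. The titles of both ESC libraries carry the letters LKO, whose meaning was not determined. Their characteristics and their table columns say wild type and were followed here. EBs and ESCs came from different lines, so cell state and line cannot be told apart between them. The labels do not say how Trim33 was inactivated in the cells used here. They also name no separate cultures for the 2 libraries of a group, and p-values therefore reflect the spread between these libraries alone, which may be technical. Libraries are named by the numeral I or II of their table column, and values are given in that order.

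The DNA just upstream of 4 members is shown because the comparisons turn on them: among the tested members Foxd3 had the largest fall from ESCs to Trim33-null EBs and Foxi3 the largest rise from ESCs to WT EBs, Foxo1 differed between genotypes, and Foxp4 had the lowest unadjusted p for activin. The windows are the 250 bases before the annotated start in RefSeq on build GRCm38.p6, written 5′ to 3′ on the strand of the gene, with motif matches in capitals.
Foxd3 chr4:99656049-99656298 (plus strand): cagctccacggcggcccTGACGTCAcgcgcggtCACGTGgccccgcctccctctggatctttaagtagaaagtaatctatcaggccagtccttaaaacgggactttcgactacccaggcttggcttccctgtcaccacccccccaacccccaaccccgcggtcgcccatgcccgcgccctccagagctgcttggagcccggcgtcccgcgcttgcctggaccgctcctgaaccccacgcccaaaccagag
Foxi3 chr6:70956356-70956605 (plus strand): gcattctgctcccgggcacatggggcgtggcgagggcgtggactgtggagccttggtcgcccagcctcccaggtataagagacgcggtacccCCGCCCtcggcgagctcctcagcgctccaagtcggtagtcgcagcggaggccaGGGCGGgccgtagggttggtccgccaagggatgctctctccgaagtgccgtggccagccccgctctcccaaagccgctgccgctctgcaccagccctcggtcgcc
Foxo1 chr3:52268087-52268336 (plus strand): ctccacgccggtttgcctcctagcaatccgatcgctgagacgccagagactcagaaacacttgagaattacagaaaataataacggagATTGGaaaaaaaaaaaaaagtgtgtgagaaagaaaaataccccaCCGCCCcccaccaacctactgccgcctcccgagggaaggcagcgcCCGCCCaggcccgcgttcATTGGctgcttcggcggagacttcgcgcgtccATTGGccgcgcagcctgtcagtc
Foxp4 chr17:47924633-47924882 (minus strand): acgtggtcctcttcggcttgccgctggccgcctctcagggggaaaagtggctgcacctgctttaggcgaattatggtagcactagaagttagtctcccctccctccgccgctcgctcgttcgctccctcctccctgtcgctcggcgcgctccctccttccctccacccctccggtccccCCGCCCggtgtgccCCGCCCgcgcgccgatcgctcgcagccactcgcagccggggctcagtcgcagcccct
In the Foxd3 window the capitals mark a cAMP response element, TGACGTCA, and an E-box, CACGTG, that begin 233 and 217 bases before the start. The capitals in Foxi3 are GC boxes, GGGCGG, at 158 and 105 bases, and those in Foxp4 are GC boxes at 71 and 57 bases. In Foxo1 they are CCAAT boxes at 162, 55 and 23 bases and GC boxes at 118 and 73 bases. Both strands were searched, and no match overlapped another. Among 32851 promoter windows of the same length, 1.55% held the cAMP response element, 6.02% the E-box, 33.9% a CCAAT box and 32.7% a GC box. None of the 4 windows held the letters of the SMAD palindrome GTCTAGAC, the SMAD half-site CAGAC, the FOXH1 motif TGTGNATT, the forkhead core GTAAACA or the TATA box TATAAA, which stood in 0.167%, 42.2%, 3.18%, 3.17% and 12.4% of all windows. The GC content was 65.6% for Foxd3, 70.4% for Foxi3, 56% for Foxo1 and 69.6% for Foxp4, against a median of 52.4% over all windows. The cAMP element, E-box, CCAAT box, GC box and TATA box were added to the search after the windows had been seen.

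All values are the FPKM that the authors deposited, in which fragment numbers are divided by gene length and by library size, so levels can be compared between genes. Each library summed to between 236760 and 251652 FPKM, and 10262 to 10846 of its genes stood at 1 FPKM or more. Read depth is unknown. Its relative size, estimated from the steps between low values, ranged from 1 in the shallowest ESC library to 4.44 in the deepest WT activin library, and no counting interval could be given. Trim33 stood at 10.1 to 11.4 FPKM in the 4 WT EB libraries, 2.23 to 2.83 in the 4 Trim33-null libraries and 6.25 to 6.60 in the ESCs. The 6 pluripotency markers summed to 448 to 563 FPKM in EBs and 880 to 886 in ESCs, and the 4 markers of primed epiblast to 257 to 265 in WT EBs, 98.5 to 164 in Trim33-null EBs and 91.6 to 102 in ESCs.

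Few forkhead genes were expressed strongly in these cells. Taking 1 FPKM or more in 2 or more libraries as expression, 18 of the 42 members were expressed, 14 of them in all 10 libraries, and limits of 0.5 and 2 FPKM gave 23 and 14. Another 15 stayed under that limit but averaged at least 0.1 FPKM in some group, and 9 were close to 0 throughout. Foxo4 and Foxd3 were the only members above 10 FPKM in any library. The 42 members together summed to 74.0 to 98.3 FPKM a library. The 4 members with the highest mean over all libraries, Foxo4, Foxd3, Foxm1 and Foxp4, carried 40.5% to 54.0% of that sum. A library had between 14 and 18 members at or above 1 FPKM, and the full 18 were reached in 1 library, Trim33-null activin II.

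**Figure D1:**
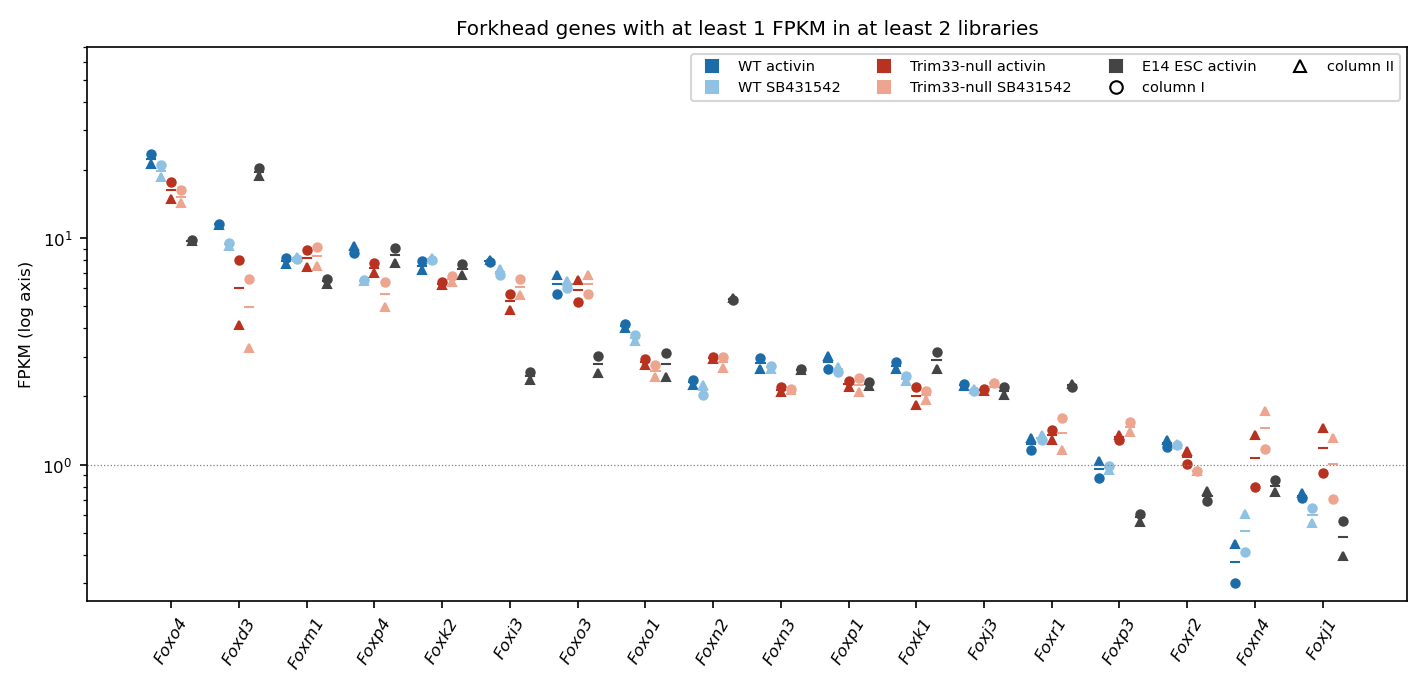
FPKM on a log axis of the 18 expressed forkhead genes in each of the 10 libraries, coloured by group, with circles for column I, triangles for column II, short lines for group means and the 1 FPKM limit dotted. Foxo4 led in EBs at 14.3 to 23.5 FPKM, Foxd3 led in ESCs at 20.5 and 18.8, and Foxp3, Foxr2, Foxn4 and Foxj1 straddled the limit.

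Among the members, which leave out Foxa2 and Foxh1, the FoxO genes had the highest summed FPKM of any lettered group in EBs. In ESCs Foxd3 alone exceeded them. Foxo4 (ENSMUSG00000042903.7) stood at 23.5 and 21.4 FPKM in WT EBs with activin, 21.1 and 18.6 in WT EBs with SB431542, 17.8 and 15.0 in Trim33-null EBs with activin, 16.3 and 14.3 in Trim33-null EBs with SB431542, and 9.82 and 9.72 in ESCs. WT EBs were highest, ESCs lowest, and the Trim33-null libraries lay between them without overlap. Foxo3, which acts in quiescence and survival in many tissues, had 5.70 and 6.85 FPKM in WT activin, 6.00 and 6.50 in WT SB431542, 5.25 and 6.53 in Trim33-null activin, 5.65 and 6.86 in Trim33-null SB431542, and 3.02 and 2.54 in ESCs. All 4 EB groups overlapped in Foxo3 and all lay above the ESCs. Foxo1, the FoxO member best known from insulin signalling, had 4.17 and 4.03 FPKM in WT activin, 3.73 and 3.53 in WT SB431542, 2.93 and 2.77 in Trim33-null activin, 2.74 and 2.45 in Trim33-null SB431542, and 3.11 and 2.45 in ESCs. The 4 Trim33-null libraries lay below the 4 WT EB libraries and overlapped the ESCs. Foxo6, known mainly from the brain, was under the limit, with means of 0.273 ± 0.0553 and 0.181 ± 0.0537 FPKM in WT EBs with activin and SB431542, 0.316 ± 0.0499 and 0.297 ± 0.0169 in Trim33-null EBs and 0.913 ± 0.0256 in ESCs (SD, n = 2). Foxo6 was the only FoxO gene whose highest group was the ESCs, although its level there was below those of the other FoxO genes. Its antisense transcript Foxo6os was at 0 to 0.00864 FPKM, and strandedness is not given in the sources used here, so reads of such pairs cannot be told apart. The 4 FoxO genes together summed to 28.9 to 33.6 FPKM in WT EBs, 23.9 to 26.2 in Trim33-null EBs and 15.6 to 16.9 in ESCs.

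Foxd3 and Foxi3 ordered the groups differently. Foxd3, needed for the epiblast and later for neural crest, stood at 11.6 and 11.5 FPKM in WT activin, 9.58 and 9.29 in WT SB431542, 7.99 and 4.13 in Trim33-null activin, 6.64 and 3.26 in Trim33-null SB431542, and 20.5 and 18.8 in ESCs. ESCs were above WT EBs and WT EBs above Trim33-null EBs in every library. The Trim33-null libraries of column I had 1.94 and 2.04 times the Foxd3 of column II under activin and SB431542, while the WT pairs differed by 1.01 and 1.03 times. Foxi3, a gene of ectodermal appendages and of the tissue that gives rise to the inner ear, had 7.87 and 8.03 FPKM in WT activin, 6.89 and 7.35 in WT SB431542, 5.69 and 4.83 in Trim33-null activin, 6.59 and 5.60 in Trim33-null SB431542, and 2.57 and 2.37 in ESCs. WT EBs were highest and ESCs lowest, again without overlap between WT EBs, Trim33-null EBs and ESCs.

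Genes of the FoxP, FoxK and FoxM groups were also expressed. Foxp4, a repressor found in developing lung and gut, had 8.58 and 9.23 FPKM in WT activin, 6.53 and 6.48 in WT SB431542, 7.80 and 7.02 in Trim33-null activin, 6.39 and 4.96 in Trim33-null SB431542, and 9.05 and 7.75 in ESCs. In both genotypes the activin libraries were above the SB431542 libraries. Foxp1, a repressor with roles in heart, blood and neurons, had 2.65 and 3.02 FPKM in WT activin, 2.55 and 2.71 in WT SB431542, 2.34 and 2.21 in Trim33-null activin, 2.42 and 2.08 in Trim33-null SB431542, and 2.31 and 2.23 in ESCs. Foxp3, the defining factor of regulatory T cells, was low, with 0.871 and 1.04 FPKM in WT activin, 0.981 and 0.951 in WT SB431542, 1.28 and 1.36 in Trim33-null activin, 1.55 and 1.39 in Trim33-null SB431542, and 0.608 and 0.560 in ESCs. Trim33-null EBs were highest in Foxp3 and ESCs lowest, and the 3 cell populations did not overlap. Foxk2 had 7.91 and 7.23 FPKM in WT activin, 7.99 and 8.15 in WT SB431542, 6.43 and 6.19 in Trim33-null activin, 6.78 and 6.39 in Trim33-null SB431542, and 7.68 and 6.90 in ESCs. Its relative Foxk1, which like Foxk2 represses genes of autophagy, had 2.84 and 2.64 FPKM in WT activin, 2.45 and 2.33 in WT SB431542, 2.19 and 1.83 in Trim33-null activin, 2.12 and 1.92 in Trim33-null SB431542, and 3.16 and 2.66 in ESCs. Both FoxK genes were lower in each Trim33-null library than in each WT EB library. Foxm1, the mitotic regulator, had 8.18 and 7.70 FPKM in WT activin, 8.14 and 8.23 in WT SB431542, 8.91 and 7.44 in Trim33-null activin, 9.18 and 7.54 in Trim33-null SB431542, and 6.59 and 6.29 in ESCs. The EB groups overlapped in Foxm1 and lay above the ESCs.

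The remaining expressed members were lower. Foxn2 had 2.37 and 2.26 FPKM in WT activin, 2.04 and 2.25 in WT SB431542, 2.98 and 2.93 in Trim33-null activin, 2.98 and 2.68 in Trim33-null SB431542, and 5.35 and 5.43 in ESCs, the reverse of the order seen for Foxi3. Foxn3, a repressor linked to cell cycle checkpoints, had 2.96 and 2.64 FPKM in WT activin, 2.72 and 2.66 in WT SB431542, 2.19 and 2.09 in Trim33-null activin, 2.17 and 2.14 in Trim33-null SB431542, and 2.65 and 2.61 in ESCs. Foxj3 was the flattest, with 2.26 and 2.21 FPKM in WT activin, 2.10 and 2.16 in WT SB431542, 2.16 and 2.11 in Trim33-null activin, 2.29 and 2.30 in Trim33-null SB431542, and 2.2 and 2.03 in ESCs. For Foxn3 the Trim33-null libraries were below all the others, and for Foxj3 no order by genotype held. Foxr1 had 1.16 and 1.31 FPKM in WT activin, 1.28 and 1.35 in WT SB431542, 1.42 and 1.28 in Trim33-null activin, 1.60 and 1.16 in Trim33-null SB431542, and 2.2 and 2.28 in ESCs. Its relative Foxr2, known from tumours in which it is activated, had 1.20 and 1.29 FPKM in WT activin, 1.22 and 1.24 in WT SB431542, 1.01 and 1.14 in Trim33-null activin, 0.938 and 0.937 in Trim33-null SB431542, and 0.690 and 0.767 in ESCs. ESCs were thus the highest population for Foxr1 and the lowest for Foxr2. Foxn4, a gene of retinal progenitors, had 0.299 and 0.446 FPKM in WT activin, 0.412 and 0.604 in WT SB431542, 0.795 and 1.35 in Trim33-null activin, 1.17 and 1.72 in Trim33-null SB431542, and 0.855 and 0.756 in ESCs. Foxj1, the master regulator of motile cilia, had 0.709 and 0.746 FPKM in WT activin, 0.642 and 0.553 in WT SB431542, 0.914 and 1.45 in Trim33-null activin, 0.701 and 1.31 in Trim33-null SB431542, and 0.566 and 0.395 in ESCs. Foxn4 and Foxj1 reached the limit in Trim33-null EBs only, so they entered the tests through the group in which they were highest. Foxp3 reached it in the 4 Trim33-null libraries and in 1 WT library, so it too was tested only because it was high in Trim33-null EBs. Both ESC libraries were under the limit for Foxp3, Foxr2, Foxn4 and Foxj1, which were tested against ESCs only through EBs.

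Differences were tested with limma on log2(FPKM + 1) over all genes that passed the limit, with Benjamini-Hochberg adjustment and a threshold of 0.05. Log2 changes are given with their standard error (SE) on that scale, which understates the change of low genes. The smallest two-sided p of a permutation test of 2 libraries against 2 is 0.333, and every call therefore depends on pooling the spread across groups and genes.

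The comparison of activin with SB431542 asks which genes follow the receptor's activity within hours. None of the 18 tested members passed in WT EBs or in Trim33-null EBs (limma with Benjamini-Hochberg adjustment), and in each genotype 1 member, Foxp4, had an unadjusted p under 0.05. Over all genes 25 of 11317 (0.221%) passed in WT and 13 (0.115%) in Trim33-null EBs, and 299 and 237 had an unadjusted p under 0.05, so 0 of 18 lies close to the background share. Leaving out any 1 of the 4 libraries compared gave 4 to 5 genes in WT and 4 to 8 in Trim33-null EBs, and 0 members in each case. The members' median log2 change was 0.06 in WT and -0.01 in Trim33-null EBs, beside 0.00 and -0.02 over all genes. Foxp4 was 1.37 times as high with activin in WT EBs, 8.91 ± 0.459 against 6.51 ± 0.0370 FPKM, and 1.31 times in Trim33-null EBs, 7.41 ± 0.553 against 5.68 ± 1.01 (SD, n = 2). The log2 changes were 0.40 ± 0.11 (limma, adjusted p = 0.947) and 0.34 ± 0.11 (limma, adjusted p = 1.00). The test of the difference in response between genotypes called 0 of 11317 genes (0%), with 24 at an unadjusted p under 0.05, and none of the 18 members was among those 24.

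Foxq1, a gene of hair shaft formation in mice, had the clearest separation by treatment among the members under the limit, and was singled out after its values had been seen. It stood at 0.250 and 0.390 FPKM in WT activin, 0.0619 and 0.0821 in WT SB431542, 0.630 and 0.680 in Trim33-null activin, 0.108 and 0.158 in Trim33-null SB431542, and 0.0821 and 0.0434 in ESCs. Every activin EB library was above every SB431542 library, and the ESCs, which also received activin, lay at or below the SB431542 libraries of Trim33-null EBs. The mean with activin was 4.45 times that with SB431542 in WT and 4.92 times in Trim33-null EBs. In a fit with no filter on low values, added after seeing the data, the log2 change was 0.30 ± 0.05 in WT (limma, adjusted p = 0.495) and 0.55 ± 0.05 in Trim33-null EBs (limma, adjusted p = 0.125), and with a pseudocount of 0.1 it was 1.27 ± 0.21 (limma, adjusted p = 0.311) and 1.70 ± 0.21 (limma, adjusted p = 0.152). Neither passed. Between genotypes under activin the same fit gave 0.33 ± 0.05 (limma, adjusted p = 0.0488) with a pseudocount of 1, which passed, as did 2.46% of 25551 genes, and 0.86 ± 0.21 (limma, adjusted p = 0.0892) with 0.1, which did not.

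**Figure D2:**
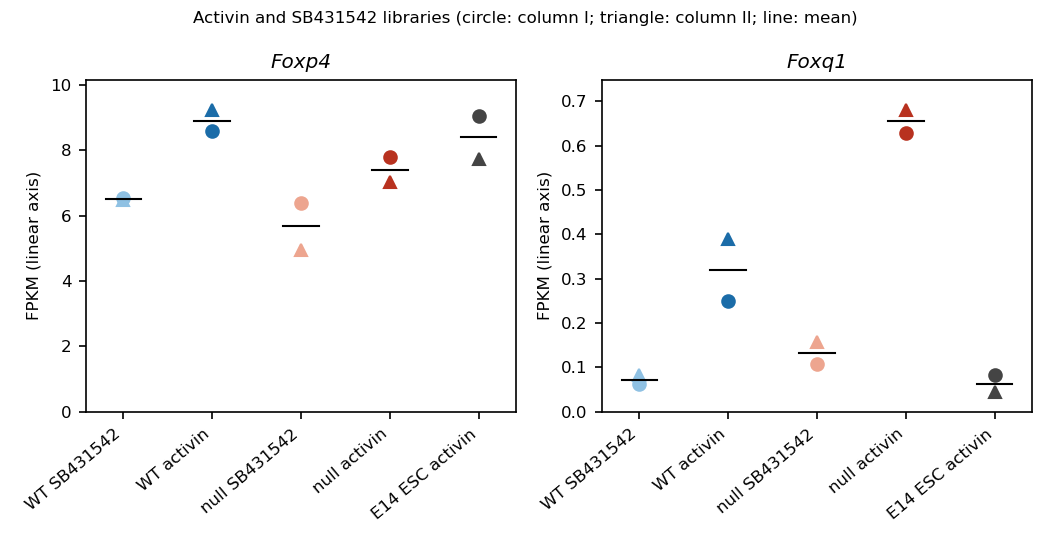
FPKM on linear axes of Foxp4 and Foxq1 in each library, with SB431542 and activin side by side for each genotype and ESCs at the right (circles: column I, triangles: column II, lines: group means). The activin libraries of both genes lie above the SB431542 libraries of the same genotype, with Foxp4 at 7.02 to 9.23 against 4.96 to 6.53 FPKM and Foxq1 at 0.250 to 0.680 against 0.0619 to 0.158.

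The comparison of Trim33-null with WT EBs asks what the absence of Trim33 changes at a given state of the receptor. Foxo1 and Foxi3 fell in Trim33-null EBs with activin, to 69.5% and 66.2% of WT. With SB431542 Foxo1 fell to 71.5% of WT. The changes of Foxo1 were -0.41 ± 0.07 (limma, adjusted p = 0.0219) under activin and -0.37 ± 0.07 (limma, adjusted p = 0.0276) under SB431542. Foxi3 changed by -0.52 ± 0.10 (limma, adjusted p = 0.0320) under activin and stood at 85.6% of WT under SB431542 (limma, adjusted p = 0.240). Foxp3 changed by 0.33 ± 0.07 (limma, adjusted p = 0.0488) under SB431542, with 0.25 ± 0.07 (limma, adjusted p = 0.0876) under activin, as values of a gene that passed the limit through Trim33-null EBs and so had to be high there. These calls depended on single libraries. Without any 1 of the 4 libraries compared, the limma adjusted p was 0.0580 to 0.152 for Foxo1 and 0.0513 to 0.173 for Foxi3 under activin, and 0.0992 to 0.237 for Foxp3 under SB431542. Foxo1 under SB431542 passed without Trim33-null SB431542 I (limma, adjusted p = 0.0429) and not without any other of the 4, with 0.113 to 0.193.

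Thus 2 of 18 members were called under activin, 0 higher and 2 lower, beside 8.09% of all genes, 3.40% higher and 4.68% lower. Under SB431542 the count was also 2 of 18, with 1 higher and 1 lower, beside 8.08% of all genes, 4.08% higher and 3.99% lower, and the higher call was that of Foxp3. Such counts are near the background share. An unadjusted p under 0.05 was reached by 11 members under activin and 9 under SB431542, and by 3206 and 3183 of all 11317 genes. The median over the 18 was -0.17 under activin and -0.16 under SB431542, against -0.03 and -0.02 over all genes. Of the 18 values 12 and 11 were negative and 6 and 7 positive, where 43.6% and 46.6% of all genes were positive. Over all genes the calls fell from 915 to between 8 and 249 without 1 library under activin, and from 914 to between 3 and 643 under SB431542. In these bulk libraries a lower share of expressing cells and less RNA per cell cannot be told apart.

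The 4 Trim33-null and 4 WT EB libraries did not overlap for 12 of the 18 members (66.7%), 3 higher and 9 lower in Trim33-null EBs, beside 40.3% of all 11317 genes, 15.6% higher and 24.6% lower. Of the 3 higher members, Foxn4 and Foxp3 had entered through Trim33-null EBs. Several of the 12 passed under neither treatment. Foxo4 changed by -0.44 ± 0.12 (limma, adjusted p = 0.0697) and -0.36 ± 0.12 (limma, adjusted p = 0.109) under activin and SB431542, or 73.0% and 76.9% of WT. Foxn4 was 2.87 and 2.84 times the WT level, with 0.58 ± 0.17 (limma, adjusted p = 0.0837) and 0.69 ± 0.17 (limma, adjusted p = 0.0584), as values of a gene that entered the test through Trim33-null EBs. Foxn2, Foxn3, Foxk1, Foxk2, Foxp1, Foxr2 and Foxd3 were others of these, and their limma adjusted p ran from 0.0525 for Foxn3 under activin to 0.310 for Foxr2 under activin. Foxd3 had the largest change of all 18 on the log2(FPKM + 1) scale, with -0.88 ± 0.33 (limma, adjusted p = 0.145) and -0.87 ± 0.33 (limma, adjusted p = 0.152), and its SE was also the largest. It stood at 52.6% and 52.5% of WT, a smaller fold difference than that of Foxn4. Without both Trim33-null libraries of column I its change was -1.29 under each treatment, and without both of column II it was -0.48 and -0.45. These exclusions were added after seeing the data and leave 1 Trim33-null library a treatment, so no p is given for them.

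**Figure D3:**
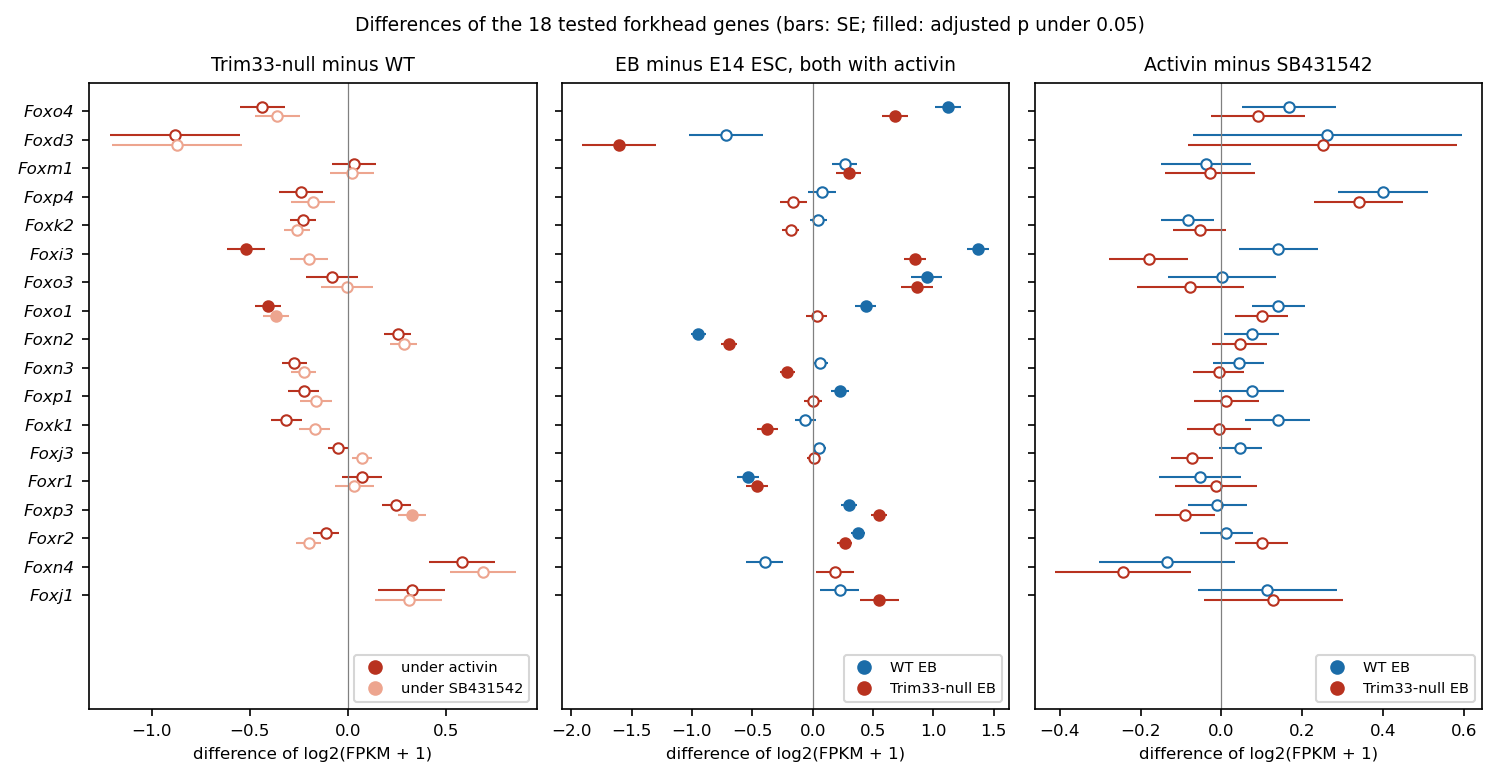
Differences on the log2(FPKM + 1) scale for the 18 tested members, with SE bars and filled points for an adjusted p under 0.05, in 3 panels with their own axes for genotype, EB against ESC and treatment. Filled points are few for genotype (Foxo1, Foxi3 and Foxp3), absent for treatment, and many for EB against ESC, where Foxi3 and Foxo4 reach 1.37 and 1.12 in WT EBs and Foxd3 -1.60 in Trim33-null EBs.

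Between EBs and ESCs, all with activin, more members were called than in the other comparisons. In WT EBs 7 members were higher than in ESCs, led by Foxi3 at 3.22 times, Foxo4 at 2.30 times and Foxo3 at 2.26 times the ESC level, and 2 were lower, Foxn2 at 42.9% of the ESC level and Foxr1. In Trim33-null EBs 7 were higher and 5 lower, with Foxd3 lowest at 30.8% of the ESC level. Both comparisons use the same 2 ESC libraries. The counts were 9 of 18 members for WT EBs, beside 56.9% of 11661 genes (30.5% higher and 26.4% lower), and 12 of 18 for Trim33-null EBs, beside 59.8% (30.2% higher and 29.6% lower). A call in either direction was therefore common among all genes. Scaling the libraries by the median of ratios moved the median of all genes by -0.12 in the WT and -0.10 in the Trim33-null comparison, and the split of all calls from 3557 higher and 3077 lower to 2685 and 4118, and from 3519 and 3454 to 2867 and 4372.

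Among the FoxO genes the log2 changes in WT EBs were 1.12 ± 0.11 for Foxo4 (limma, adjusted p = 0.000108), 0.94 ± 0.13 for Foxo3 (adjusted p = 0.000670) and 0.44 ± 0.09 for Foxo1 (adjusted p = 0.00429). In Trim33-null EBs they were 0.68 ± 0.11 for Foxo4 and 0.86 ± 0.13 for Foxo3 (limma, adjusted p = 0.00120 and 0.00107), while Foxo1 stood at 1.03 times the ESC level (limma, adjusted p = 0.774). Foxi3 changed by 1.37 ± 0.09 in WT and 0.85 ± 0.09 in Trim33-null EBs (limma, adjusted p = 2.50e-05 and 0.000242). Foxn2 changed by -0.95 ± 0.06 and -0.69 ± 0.06 (limma, adjusted p = 2.31e-05 and 0.000103), and Foxr1 by -0.54 ± 0.09 and -0.46 ± 0.09 (limma, adjusted p = 0.00182 and 0.00369). Foxr2 and Foxp3 also rose against ESCs in both, by 0.38 and 0.30 in WT and by 0.26 and 0.55 in Trim33-null EBs, but both genes were tested only because EB libraries reached the limit. These directions held under the scaling.

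Foxd3 stood in WT EBs at 58.6% of the ESC level, -0.72 ± 0.31, and did not pass (limma, adjusted p = 0.0770), whereas in Trim33-null EBs it changed by -1.60 ± 0.31 (limma, adjusted p = 0.00304). It passed in WT EBs after scaling, with -0.85 (limma, adjusted p = 0.0430), and in a fit of the 4 libraries alone, with the same -0.72 (limma, adjusted p = 0.000111), in which the wide Trim33-null values play no part. The weaker calls depended on settings. Foxp1 rose by 0.23 in WT EBs (limma, adjusted p = 0.0327) and lost the call after scaling, with 0.13 (limma, adjusted p = 0.153), and without WT activin II, ESC I or ESC II (limma, adjusted p from 0.0887 to 0.187). Foxm1 rose by 0.30 in Trim33-null EBs (limma, adjusted p = 0.0387) and lost the call after scaling, with 0.20 (limma, adjusted p = 0.132), and without Trim33-null activin I, ESC I or ESC II (limma, adjusted p from 0.0968 to 0.194). Foxn3 fell by 0.21 (limma, adjusted p = 0.0177) and lost the call without Trim33-null activin II, ESC I or ESC II (limma, adjusted p from 0.0656 to 0.0848). Foxk1 fell by 0.37 and Foxr2 rose by 0.26 in Trim33-null EBs, and both lost the call without ESC I (limma, adjusted p = 0.0570 and 0.0584). Foxj1, also tested only through EBs, rose by 0.55 and lost it without ESC I or ESC II (limma, adjusted p = 0.0510 and 0.116). The count of members for Trim33-null EBs was 7 without ESC I and 10 to 11 without any other library.

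Genes that act with forkhead factors were read from lists, all counted on the same fit. Of 18 tested kinases and regulators upstream of FoxO proteins, 0 rose and 4 fell in Trim33-null EBs under each treatment, where 4.68% and 3.99% of all genes fell. Among them were the insulin receptor substrate Irs2 at -0.88 and -0.74 and the insulin-like growth factor receptor Igf1r at -0.47 and -0.45 (limma, adjusted p from 0.00996 to 0.0449), both of which promote Akt activity. The median of this list was -0.05 under activin and 0.02 under SB431542, against -0.03 and -0.02 over all genes. Of 19 tested FoxO targets, Cited2 rose by 0.73 and 0.67 and Irs2 and Pink1 fell, Pink1 by 0.60 and 0.57. Of 20 FoxM1 targets, the mitotic kinase Aurkb fell by 0.38 under each treatment (limma, adjusted p = 0.0486 and 0.0489) and lost both calls after scaling, and the median was -0.19 under each, beside Foxm1 itself at 8.18 ± 1.04 and 7.94 ± 0.338 FPKM in Trim33-null and WT EBs with activin. Of 16 FoxP and FoxK partners, Mta2 fell by 0.30 under activin (limma, adjusted p = 0.0450), a call lost after scaling, and none passed under SB431542 (limma, 3 at an unadjusted p under 0.05). Of 8 FoxD3 and FoxA partners, the corepressor Tle4 rose by 0.39 under SB431542 (limma, adjusted p = 0.0451) and none passed under activin (limma, 3 at an unadjusted p under 0.05). Of 5 FoxJ1 targets of motile cilia none passed (limma) in either genotype comparison, with 0 and 1 at an unadjusted p under 0.05. Between activin and SB431542 none of the 81 tested genes of these 6 lists passed (limma) in either genotype, with 3 in WT and 2 in Trim33-null EBs at an unadjusted p under 0.05.

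Against ESCs genes of the lists changed in both directions, where 30.5% of all genes rose and 26.4% fell in WT EBs, and 30.2% rose and 29.6% fell in Trim33-null EBs. Of 19 FoxO targets, 11 rose and 5 fell in WT EBs and 9 rose and 4 fell in Trim33-null EBs, with medians of 0.38 and 0.22 against 0.04 and 0.02 over all genes. Pink1 rose by 1.30 and 0.70 and the insulin receptor gene Insr by 0.92 and 0.71, while Klf4 and Klf2, which are also factors of naive pluripotency, fell by 2.5 and 1.49 and by 1.82 and 1.23. The ubiquitin ligase gene Fbxo32 rose by 0.84 and 0.59, and Sod2, a mitochondrial superoxide dismutase, fell by 1.00 and 0.95. Of 20 FoxM1 targets, 1 rose and 6 fell in WT EBs and 1 rose and 11 fell in Trim33-null EBs, with medians of -0.12 and -0.37, while Foxm1 itself was at 7.94 and 8.18 FPKM against 6.44 in ESCs. Bub1b fell by 0.59 and 0.89, Skp2 by 0.48 and 0.65, Top2a by 0.47 and 0.95, and the centromere histone gene Cenpa rose by 0.44 and 0.40. After scaling, FoxM1 targets had 10 and 12 lower calls. Of 18 FoxO regulators, 6 rose and 6 fell in WT EBs and 5 rose and 7 fell in Trim33-null EBs, with Sgk1 the most reduced at -1.45 and -1.41. Of 16 FoxP and FoxK partners, 3 rose and 4 fell in WT EBs and 3 rose and 5 fell in Trim33-null EBs, with Ctbp1 at 0.70 and 0.44 and its paralog Ctbp2 at -0.82 and -0.88. Of 8 FoxD3 and FoxA partners, 0 rose and 4 fell in WT EBs and 0 rose and 6 fell in Trim33-null EBs, Nanog among them at -0.52 and -0.64. Of 6 FoxJ1 targets, 0 rose, 4 fell in WT EBs and 3 in Trim33-null EBs, with Rfx2 at -1.23 and -1.07 and Tekt1 at -0.99 and -1.01, while Foxj1 was at 0.727 and 1.18 FPKM against 0.481 in ESCs. Only 5 of the 6 targets were tested among EBs alone. The remaining target reached the limit only through ESC libraries, so it had to be high there.

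The 15 low members, with a group mean of at least 0.1 FPKM and under the limit, lay close to what the table can resolve. Foxj2 had the highest mean over the libraries among them, at 0.567 to 0.862 FPKM. Foxa3, a liver and endoderm factor, averaged 0.526 and 0.578 FPKM in WT EBs with activin and SB431542, 0.400 and 0.346 in Trim33-null EBs and 0.280 in ESCs. Its paralog Foxa1 averaged 0.127 and 0.106, 0.205 and 0.152, and 0.0572 FPKM in the same order. Foxb1, a gene of the developing diencephalon, averaged 0.324 and 0.281 FPKM in WT EBs and 0.120 and 0.0612 in Trim33-null EBs, with WT above Trim33-null in every library, and was listed at 0 in both ESC libraries. Foxe1, a thyroid factor, went the other way in its means, with 0.259 and 0.225 FPKM in WT EBs, 0.433 and 0.491 in Trim33-null EBs and 0.0466 in ESCs. Under activin the genotypes overlapped in Foxe1, with WT activin II at 0.311 and Trim33-null activin I at 0.293 FPKM. Foxd4, a gene of early neural ectoderm, had group means of 0.0955 to 0.166 FPKM.

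Without the filter 41 members were tested, and 14 passed between WT EBs and ESCs and 19 between Trim33-null EBs and ESCs (limma, pseudocount of 1), beside 37.4% and 38.8% of 25653 genes. In WT EBs the members under the limit that passed were Foxa3 at 0.25, Foxq1 at 0.31, Foxd1 at 0.20, Foxb1 at 0.40 and Foxp2 at 0.08, all higher than in ESCs, and Foxo6 at -0.59. In Trim33-null EBs they included Foxe1 at 0.45, Foxq1 at 0.64, Foxd1 at 0.30, Foxa1 at 0.19, Foxl1 at 0.12 and Foxi2 at 0.03, all higher, and Foxo6 at -0.54. Some of these levels were close to 0. Foxi2 stood at 0.0156 and 0.0279 FPKM in Trim33-null activin and at 0 and 0.00592 in ESCs. The ESC libraries were also the shallowest by the depth estimate, and such values cannot be given an error from counting. Foxo6 in ESCs was 3.35 times its level in WT EBs and 2.89 times that in Trim33-null EBs. Between genotypes Foxd1 passed under SB431542 with a pseudocount of 1, at 0.17 (limma, adjusted p = 0.0459), as did 2.87% of 25551 genes, and not with 0.1, at 0.70 (limma, adjusted p = 0.0625).

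**Figure D4:**
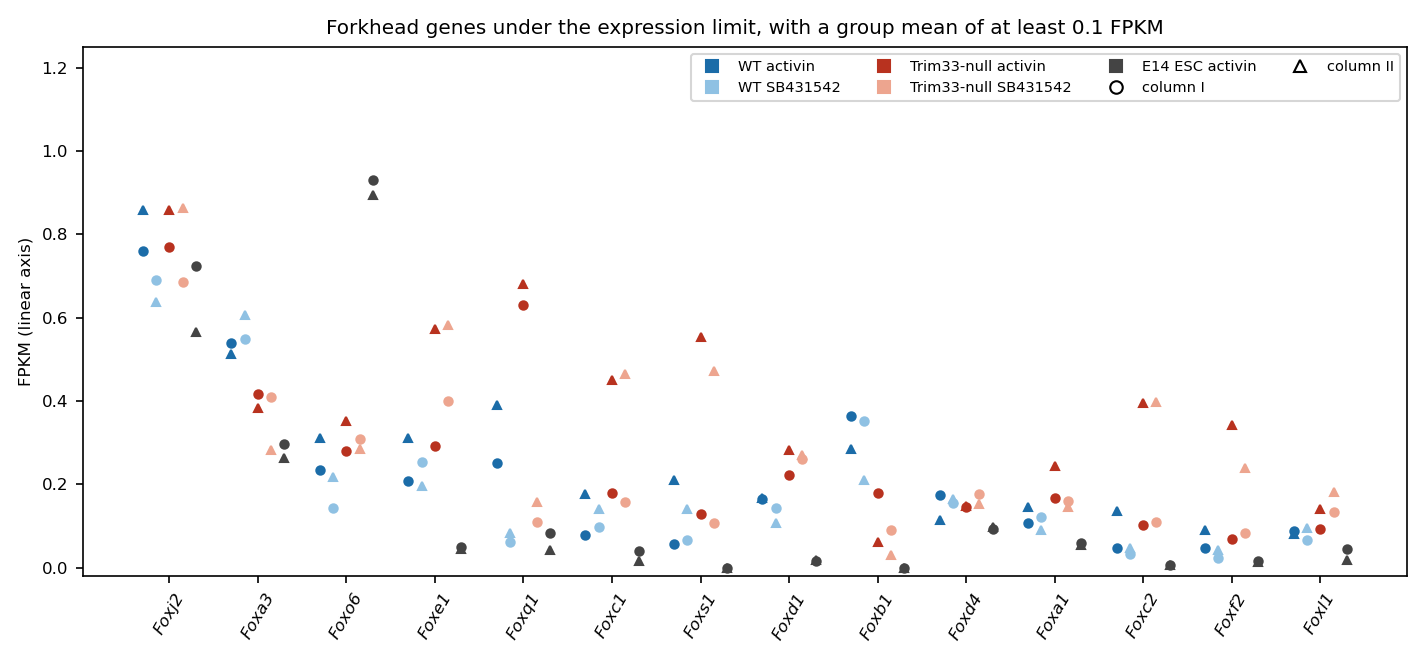
FPKM on a linear axis of 14 of the 15 forkhead genes under the expression limit with a group mean of at least 0.1 FPKM, in each library (colours: groups, circles: column I, triangles: column II). Foxo6 is highest in the ESCs at 0.931 and 0.895, Foxq1 in the Trim33-null activin libraries at 0.630 and 0.680, and Foxs1, Foxc1, Foxc2 and Foxf2 in the Trim33-null column II libraries.

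Forkhead genes of mesoderm and mesenchyme were low in all groups and highest in column II of the Trim33-null EBs. Foxs1, a gene of pericytes, was at 0.0578 and 0.211 FPKM in WT activin, 0.0655 and 0.140 in WT SB431542, 0.128 and 0.554 in Trim33-null activin, 0.107 and 0.472 in Trim33-null SB431542, and listed at 0 in both ESC libraries. Foxc1 was at 0.179 and 0.451 FPKM in Trim33-null activin and 0.157 and 0.465 in Trim33-null SB431542, and its relative Foxc2 at 0.101 and 0.396 and at 0.110 and 0.397. Foxf2, a gene of gut mesenchyme, was at 0.0684 and 0.343 and at 0.0842 and 0.238. In Trim33-null EBs column II was 4.31 and 4.39 times column I for Foxs1 under activin and SB431542, and 2.52 and 2.96 times for Foxc1. It was 3.91 and 3.61 times for Foxc2 and 5.01 and 2.83 times for Foxf2. Column II was also higher in WT EBs, at 3.66 and 2.14 times for Foxs1 and 2.26 and 1.43 times for Foxc1. There it was 2.92 and 1.44 times for Foxc2 and 1.90 and 1.82 times for Foxf2. Foxd1, a gene of kidney stroma, differed less between the columns, at 0.222 and 0.283 and at 0.260 and 0.271 FPKM. Foxl1, a gene of gut mesenchyme, averaged 0.0836 and 0.0809 FPKM in WT EBs, 0.116 and 0.157 in Trim33-null EBs and 0.0305 in ESCs.

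A sum over 8 such genes, Foxc1, Foxc2, Foxd1, Foxd2, Foxf1, Foxf2, Foxl1 and Foxs1, grouped after their values had been seen, was 0.518 and 0.931 FPKM in WT activin, 0.463 and 0.620 in WT SB431542, 0.861 and 2.34 in Trim33-null activin, 0.957 and 2.21 in Trim33-null SB431542 and 0.141 and 0.101 in ESCs. Summed markers of fibroblasts moved with it, though unevenly. From column I to II in Trim33-null EBs Thy1 rose 1.31 and 1.44 times under activin and SB431542. Col1a1, Col1a2, Postn and S100a4 rose 2.94 to 4.16 times. The 5 markers, all in the table, summed to 6.53 and 10.7 FPKM in WT activin, 6.74 and 9.92 in WT SB431542, 12.1 and 30.9 in Trim33-null activin, 12.5 and 36.5 in Trim33-null SB431542 and 3.86 and 3.75 in ESCs, of which Thy1 gave 3.22 in each ESC library. None of the 5 was at 0 in any library, and their part in the result was not tested. Collagen gene Col1a1 was at 2.73 and 8.98 FPKM in Trim33-null activin and at 2.97 and 10.3 in Trim33-null SB431542. Of the 17 forkhead genes under the limit that exceeded 0.1 FPKM in some library, 13 (76.5%) were highest in a Trim33-null column II library, beside 1780 of 6160 (28.9%) among all such genes. Foxf1, Foxf2 and Foxl2 exceeded 0.1 FPKM only in Trim33-null column II libraries, so they had to be highest there. How many of all such genes entered in this way was not counted. In Trim33-null EBs Foxn4 and Foxj1 were also higher in column II, at 1.69 and 1.47 times column I for Foxn4 and 1.59 and 1.86 times for Foxj1. In WT EBs these ratios were 1.49 and 1.47 for Foxn4 and 1.05 and 0.862 for Foxj1. The excess of Foxn4 in column II was thus not particular to Trim33-null EBs. Foxd3 in Trim33-null EBs went the opposite way, with column I higher. Among the genes tested in EBs, 4.78% exceeded 1.5-fold in Trim33-null column II over column I under both treatments. The share was 12.4% among the 6160 genes under the limit that exceeded 0.1 FPKM in some library.

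**Figure D5:**
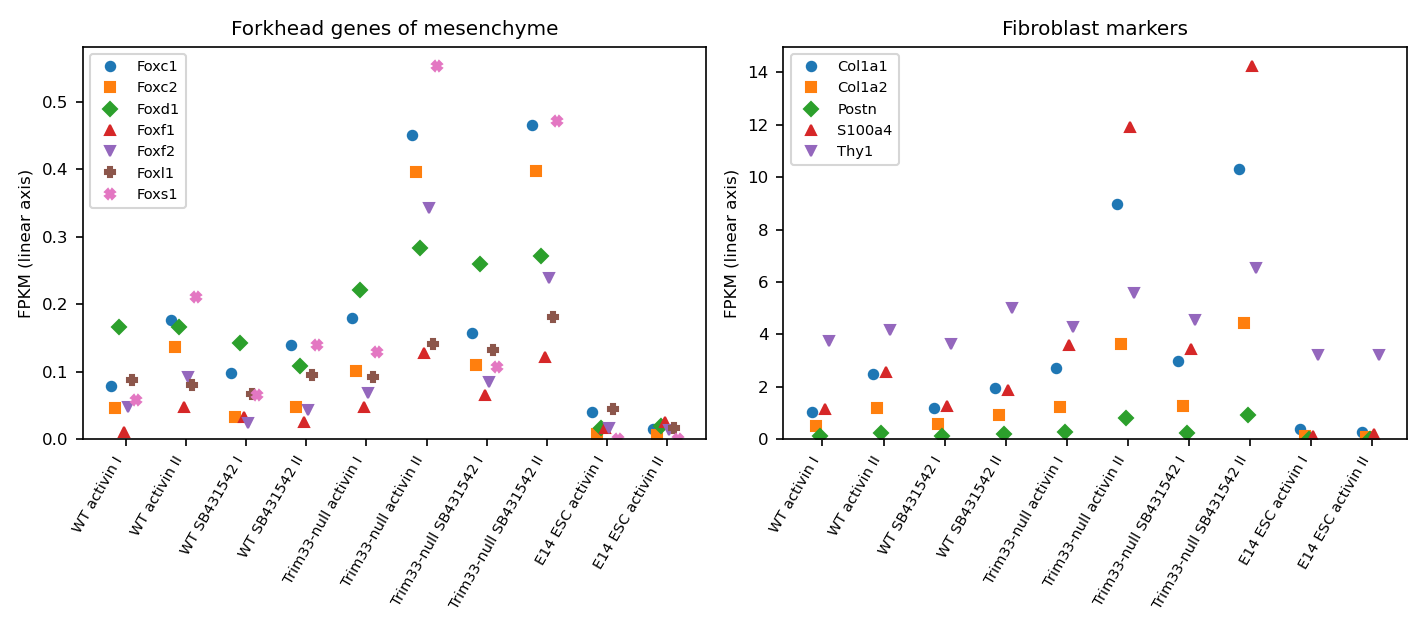
FPKM on linear axes in each library of 7 forkhead genes of mesenchyme (left) and of the 5 fibroblast markers (right). Both panels are highest in the Trim33-null column II libraries, where Foxs1 reaches 0.554 FPKM and S100a4 reaches 14.3, and Foxs1 is at 0 in both ESC libraries.

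The 9 members close to 0 had no group mean of 0.1 FPKM. Foxf1, a gene of splanchnic mesoderm, ran from 0.0111 to 0.128 FPKM and Foxl2, a gene of the ovary, from 0 to 0.122, each highest in a Trim33-null column II library. Foxp2, known from brain circuits of vocal learning, averaged 0.0794 and 0.0803 FPKM in WT EBs, 0.0371 and 0.0308 in Trim33-null EBs and 0.0202 in ESCs, with each WT library above each Trim33-null library. Foxd2 ran from 0 to 0.0650 FPKM, under its antisense transcript Foxd2os in every library, which reached 0.178. Foxi2, Foxb2, Foxe3, a lens gene, and Foxn1, the thymic epithelium gene, stayed at or below 0.0279 FPKM in all libraries. Foxi1 was listed at 0 in all 10.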

How the data were processed

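The deposited values are FPKM per gene, with 1 column for each RNA-seq library of a common table. Per the submitters' processing notes, which give no roles, the authors used the build mm9 with STAR 2.4.0, Bowtie2 2.2.2, Cufflinks 2.2.1 and CASAVA 1.8. The sources used here give no annotation, read filter or strandedness. Of 29145 entries, 113 with a repeated symbol were left out by lower mean FPKM, which left 29032. The other 13 samples of the series, from ATAC-seq and ChIP-seq, were not analysed here.

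The test was limma (version 3.58.1, R 4.3.3) applied to log2(FPKM + 1) with an intensity trend, with Benjamini-Hochberg adjustment and a threshold of 0.05, over genes that reached 1 FPKM in 2 or more libraries of the fit. The 8 EB libraries were fitted together for treatment, genotype and their interaction, and all 10 for EBs against ESCs. The fit was also run on simulated data with independent noise for each library. That run did not cover the correlation between columns of the same numeral described below. A pseudocount of 0.1, no filter, a replicate block, median-of-ratios scaling, a fit of the 4 libraries compared and leaving out each library were tried. Relative depth was estimated from values under 0.06 FPKM, of which 7.23% to 10.0% lay within 0.02 on the log2 scale of the step found, so no count test was run. Table columns of the Trim33-null EBs could not be matched to the numbers in the sample titles.

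Members that reached 1 FPKM in 2 or more libraries have each library's value, those with a group mean of at least 0.1 FPKM have group means, and the others a range. Of each list, up to 6 called genes with the largest change are named. Values of some of these members and listed genes are not reported here. Members and lists were chosen with earlier results of these data known. Promoter windows come from RefSeq on GRCm38.p6, a later build than that of the expression table, and 27 of the 42 members matched.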

Additional observations from a re-analysis of the deposited data

Results flagged for a closer look

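The activin libraries of Foxj3 lay above the SB431542 libraries in WT EBs and below them in Trim33-null EBs. Its mean FPKM with activin was 1.05 times that with SB431542 in WT EBs and 0.929 times in Trim33-null EBs. These differences are small, and the test of the difference in response between genotypes did not call Foxj3 (limma, adjusted p = 1.00, -0.12 ± 0.07 on the log2 scale).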

How the results depend on the processing

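No log2 change was reversed in direction under any alternative among the members with an unadjusted p under 0.05. The 7 comparisons' counts and the count of expressed members have no direction and are not covered by that statement. Between activin and SB431542, 0 members passed under every alternative run. All-gene counts there were 25 in WT and 13 in Trim33-null EBs, and became 15 and 6 with no filter, 38 and 0 with the 4 libraries alone, and 4 to 5 and 4 to 8 without 1 library. Between genotypes the 2 of 18 members called under each treatment became 0 with the 4 libraries alone. Leaving out 1 library also lowered both counts. With a pseudocount of 0.1 the count under SB431542 became 1. With no filter 1 of 41 members passed under SB431542, beside 2.87% of all genes. That member was Foxd1, so neither Foxo1 nor Foxp3 kept its call there. Under activin 2 of 41 passed with no filter, beside 2.46% of all genes. These were 1 higher, Foxq1, and 1 lower, so Foxo1 and Foxi3 did not both keep their calls. All-gene counts of 915 and 914 became 50 and 279 with the 4 libraries alone, and 8 to 249 and 3 to 643 without 1 library. Against ESCs 9 and 12 members became 14 and 19 with no filter, and 8 to 9 and 7 to 11 without 1 library. The 9 and 12 were of 18 tested members, beside 56.9% and 59.8% of all genes. The 14 and 19 were of 41 tested members, beside 37.4% and 38.8% of all genes. The larger counts with no filter were therefore not larger shares of the members. All-gene counts against ESCs without 1 library are not reported here. Excluding both Trim33-null libraries of column I or of column II was chosen after seeing the data. Without column I, 9 and 8 members and 3355 and 3380 genes were called between genotypes under activin and SB431542, and 4 genes between treatments in Trim33-null EBs. Without column II, the member count under SB431542 was 1 and the treatment count 5. Both leave 1 Trim33-null library a treatment, and with the EBs fitted alone the spread comes from the WT libraries, so these counts are no test of Trim33-null variation. Likewise, where leaving out 1 library leaves a group of 1, it is assumed to vary like the other groups. Fits with fewer libraries have fewer residual degrees of freedom, and the cause of the other shifts was not tested. Depth is unknown, so values under 0.1 FPKM cannot be given an error from counting.

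The replicate block took the column numeral as a term. Deviations of the same numeral correlated across genes between treatments, with 0.459 in WT and 0.909 in Trim33-null EBs, but with 2 pairs each and no label saying that a numeral marks a shared culture the libraries share only a number. With the block, 123 genes in WT and 83 in Trim33-null EBs passed between treatments, and between genotypes 8 and 7 members and 2234 and 2206 genes passed under activin and SB431542. The block added no member call between treatments and no call for the difference in response.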
